A study of Homo sapiens with 12 samples.

Results

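The variants described here are reporter mRNAs that carry TGG, the codon for tryptophan, where the other variants of the libraries carry a stop codon, and that have no stop codon in frame before it. A ribosome in frame therefore reads through the whole randomized window, and these variants serve as the full-length controls of the study. They were chosen by sequence alone: TGG at bases 7 to 9 of a 10-base window, and a sense codon both at bases 1 to 3 (the penultimate codon) and at bases 4 to 6 (the last codon). For the EJC-independent reporter the authors' deposited table lists 10353 such controls among 41955 variants, and for the EJC-enhanced reporter it lists 13134 among 51306. A further 642 and 918 TGG variants were left out because a stop codon stands in frame among their random bases. Of 14884 possible control windows, 69.6% are listed for the EJC-independent and 88.2% for the EJC-enhanced reporter. Both tables hold 9908 of them, which is 95.7% of the EJC-independent and 75.4% of the EJC-enhanced controls.

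Both reporter libraries were placed at 1 genomic location of HEK293T, a transformed human embryonic kidney cell line, by Cre-Lox recombination. The reporters are named after the exon junction complex (EJC): decay of the EJC-independent reporter does not need such a complex downstream of the stop codon, and decay of the EJC-enhanced reporter is raised by one. Cells of each reporter received either the vehicle DMSO or an inhibitor of the kinase SMG1 at 0.5 µM for 24 hours before total RNA was extracted with TRIzol. Each of the 4 combinations has 3 replicate libraries, 12 in all, and the labels do not say whether these are separate cultures. The cells are otherwise wild type, per the labels. The tables hold reporter variants only, so the label of the cell line could not be checked against cellular genes.

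Nonsense-mediated mRNA decay (NMD) removes mRNAs on which translation ends too early. SMG1 phosphorylates the helicase UPF1 at such stop codons, phosphorylated UPF1 recruits the decay factors, and an EJC left downstream of the stop codon strengthens the signal. An mRNA that is read through the window without a stop gives this pathway no early stop codon to act on, which is why TGG variants mark the level from which the response of stop variants is read.

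Sequences of some controls named in the results are shown from 5′ to 3′ as DNA letters, with the tryptophan codon in capitals. The first 4 were called higher under the inhibitor in both reporters, the fifth in the EJC-independent reporter but not in the other, the sixth and seventh had the extreme responses of the EJC-enhanced reporter named below, the eighth moved in opposite directions, and the last is the most abundant control.
Ser-Gly control: agtggaTGGc
Ile-Gly control: attggcTGGc
Gly-Ser control: ggttcgTGGc
Thr-Arg control: acccgtTGGc
Ile-Gln control: atacaaTGGc
Glu-Arg control: gaacggTGGa
Asp-Trp control: gactggTGGt
Thr-Thr control: accacaTGGa
Pro-Pro control: ccccccTGGc

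With TGG fixed, a stop triplet out of the reporter's frame fits only at bases 2 to 4 or at bases 3 to 5, since no stop codon ends in T or TG or starts with G. The 6 patterns below show these triplets and the tryptophan codon in capitals, and n stands for any base that leaves both codons before TGG sense codons.
TAA at bases 2 to 4: nTAAnnTGGn
TAG at bases 2 to 4: nTAGnnTGGn
TGA at bases 2 to 4: nTGAnnTGGn
TAA at bases 3 to 5: nnTAAnTGGn
TAG at bases 3 to 5: nnTAGnTGGn
TGA at bases 3 to 5: nnTGAnTGGn

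The response used throughout compares a variant's RNA between inhibitor and DMSO as a log2 ratio, positive where the inhibitor is higher. It is the fold change of the authors' deposited tables with the sign reversed, because those tables do not name the numerator and their stop variants are negative. The tables give 1 comparison per variant and no value per library, so single responses are printed with the standard error (SE) of the authors' fit to 3 against 3 libraries. They are relative to the scaling inside each table, which sets the place of 0, and the 2 tables were scaled apart. A variant is called higher or lower where the adjusted p of the deposited Wald test is under 0.05. Errors of means run over variants of the same libraries and not over cultures. Since the cells form a pool, fewer cells that carry a variant and less RNA per cell cannot be told apart.

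The full-length controls as a group lay close to 0, a place that is set by the scaling inside each table. Over controls whose mean normalized count reached 10, the mean response was -0.018 in the EJC-independent reporter (SD 0.54, 10272 variants) and 0.026 in the EJC-enhanced reporter (SD 0.61, 13093 variants). The medians were -0.036 and -0.021. Stop variants lay 1.74 and 2.26 above these means. That minimum left out 81 and 41 listed controls, whose means were -0.51 ± 0.12 and -0.52 ± 0.14 (SE over variants).

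Few controls were called, and far fewer than among all variants. By the authors' deposited table, 420 of 10348 tested controls of the EJC-independent reporter were higher under the inhibitor (4.06%, against 64.5% of all variants) and 415 were lower (4.01%, against 0.997% of all variants). For the EJC-enhanced reporter the authors' deposited table has 361 of 13120 higher (2.75%, against 63.7% of all variants) and 180 lower (1.37%, against 0.356%). The whole tables consist mostly of stop variants, so their shares are a background for the table and not for a sequence without a stop. Nearly all calls in the lower direction fell on TGG controls, 415 of 418 and 180 of 182. Without adjustment, a Wald test p under 0.05 was found for 526 higher and 572 lower controls of the EJC-independent and for 474 and 288 of the EJC-enhanced reporter. The adjustment ran over each whole table, stop variants included. The threshold of 0.05 therefore does not limit false calls among the controls alone to that share.

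Single controls nevertheless spread widely. From the 5th to the 95th percentile the response ran from -0.80 to 0.86 in the EJC-independent and from -0.81 to 1.07 in the EJC-enhanced reporter, and the extremes were -4.75 and 4.77, and -3.61 and 5.93. A response above 1 was found for 398 EJC-independent controls, of which 158 were called in the authors' deposited table, and one below -1 for 301, of which 81 were called. The EJC-enhanced reporter had 740 above 1 (314 called) and 395 below -1 (122 called). The median response of stop variants was exceeded by 118 controls of the EJC-independent reporter (71 called) and by 106 of the EJC-enhanced reporter (79 called). The median SE of a single response was 0.28 and 0.41. Divided by its own SE, the response had an SD of 1.38 in the EJC-independent reporter, where a spread made of the fitted error alone would give about 1, and of 1.02 in the EJC-enhanced reporter. The former rose from 1.07 at mean counts of 10 to 50 to 1.84 at 1000 or more. The latter averages over classes on both sides of 1, with 1.14 at 50 to 100 and 0.73 at 1000 or more.

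The spread followed the abundance of the variant, and the mean response changed little along it. At mean counts of 10 to 50 the SD was 1.06 in the EJC-independent and 1.05 in the EJC-enhanced reporter, and at 1000 or more it was 0.19 and 0.24. The mean response at 1000 or more was -0.02 ± 0.004 (SE, 2646 variants) and 0.05 ± 0.005 (SE, 2004 variants), against 0.03 ± 0.03 and 0.02 ± 0.03 at 10 to 50. In the EJC-enhanced reporter the class means rose in order from 0.01 at 50 to 100, and the class at 1000 or more was 0.03 above the rest (95% interval 0.01 to 0.05). Among classes from 10 upward, calls at 1000 or more were the most frequent of the EJC-independent and the rarest of the EJC-enhanced reporter. At 1000 or more the authors' deposited table has 6.50% of the EJC-independent controls higher and 7.29% lower, and 1.05% and 0.0499% of the EJC-enhanced controls. At counts of 100 to 250 the shares were 3.23% and 2.91% against 3.39% and 2.04%. Below 1000 the EJC-independent share called higher stayed between 3.07% and 3.39%. The EJC-enhanced share went from 2.32% at 10 to 50 to 3.53% at 250 to 500 and 2.34% at 500 to 1000. From counts of 50 to 100 upward, the share called lower rose from 1.88% in the EJC-independent and fell from 2.62% in the EJC-enhanced reporter. The smallest SE of any variant is 0.034 in the EJC-independent table and 0.22 in the EJC-enhanced table, so a small response of an abundant variant could be called only in the former.

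Abundance itself differed with the sequence. Proline as the last amino acid was listed for 94.2% and 99.6% of its possible windows, with a median mean count of 1027 and 890, and its codons are rich in C. Glutamate, with codons of G and A, was listed for 31.8% and 62.5%, with medians of 90.2 and 82.9, and lysine for 31.6% and 59.4%, with medians of 94.5 and 82.9. Of the 4 bases after TGG, C went with the highest median count (509 and 426) and A with the lowest (221 and 192). Precision therefore differs between codons, and the means of glutamate and lysine rest on fewer and rarer variants.

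The last amino acid, which sits in the ribosomal P site when the window's seventh to ninth bases are decoded, barely moved the response of the controls. The means of 20 amino acids spanned 0.15 in each reporter, and the amino acid accounted for 0.315% and 0.286% of the variance of single controls. Among stop variants of the same tables it accounted for 8.11% in the EJC-independent and 0.147% in the EJC-enhanced reporter. The highest means of the EJC-independent reporter belonged to glycine at 0.02 ± 0.03 (SE over variants), alanine at 0.02 ± 0.02, valine at 0.01 ± 0.02 and aspartate at 0.01 ± 0.03, and for each of these 4 the interval of the difference from all other controls includes 0. The highest of the EJC-enhanced reporter were aspartate at 0.07 ± 0.04, threonine at 0.07 ± 0.02, glycine at 0.06 ± 0.03 and histidine at 0.06 ± 0.02. Threonine was higher than the other EJC-enhanced controls by 0.04 (95% interval 0.004 to 0.08). Of the 20 last amino acids, such an interval lay above 0 for 1 and below 0 for 2 in the EJC-enhanced reporter. In the EJC-independent reporter the numbers were 0 and 3. Intervals throughout are not adjusted for the number of groups compared.

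Glutamate had the lowest mean in both reporters, -0.13 ± 0.05 over 155 EJC-independent and -0.09 ± 0.05 over 301 EJC-enhanced controls. Its difference from the other controls was -0.11 (95% interval -0.22 to -0.01) and -0.12 (-0.21 to -0.02). The difference in the EJC-independent reporter was -0.05 at mean counts of 100 or more. By the authors' deposited tables, 6 EJC-independent glutamate controls were higher and 4 lower (3.87% and 2.58%, against 4.09% and 4.03% of all controls with a mean count of 10 or more). In the EJC-enhanced reporter 8 were higher and 6 lower (2.66% and 1.99%, against 2.76% and 1.38%). Tyrosine at -0.08 ± 0.03, lysine at -0.07 ± 0.06 and tryptophan came next in the EJC-independent reporter. Methionine at -0.08 ± 0.05, asparagine at -0.04 ± 0.03 and lysine at -0.04 ± 0.05 came next in the EJC-enhanced reporter. Over the 20 amino acids the means of the 2 reporters had a Pearson r of 0.46, as a description. The aromatic amino acids together were 0.06 below the other controls in the EJC-independent reporter (interval -0.10 to -0.02, 930 variants), with 2.37% called higher and 5.16% lower against 4.09% and 4.03% of all controls of that count, and 0.01 below them in the EJC-enhanced reporter (interval -0.05 to 0.02).

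By codon the means spread more, over 0.22 and 0.34, and mostly did not recur in the other reporter. The lowest last codons of the EJC-independent reporter were GAA at -0.14 ± 0.07, GAG at -0.12 ± 0.08, AGC at -0.11 ± 0.05 and TAT at -0.10 ± 0.04. Its highest were GTT at 0.08 ± 0.05, GGC at 0.07 ± 0.05, AAC at 0.05 ± 0.05 and GCG at 0.05 ± 0.05. In the EJC-enhanced reporter GAA was again lowest at -0.15 ± 0.06, followed by ATG at -0.08 ± 0.05, AAG at -0.07 ± 0.07 and AAC at -0.05 ± 0.04, so AAC stood at opposite ends. Its highest were GGA, a glycine codon, at 0.19 ± 0.07, ACT at 0.11 ± 0.04, GAC at 0.10 ± 0.05 and CAT at 0.09 ± 0.04. The codon means of the 2 reporters had a Pearson r of 0.18 over 61 codons. Called shares were highest for the proline codon CCC in the EJC-independent reporter, where the authors' deposited table has 35 of 244 higher (14.3%) and 11 lower, with a mean of 0.02 ± 0.02 and a median mean count of 2254. The EJC-enhanced reporter had 1 of 244 higher.

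The penultimate amino acid and codon gave smaller spans than the last, 0.10 and 0.14 over amino acids and 0.19 and 0.26 over codons. For amino acids this order held in some other settings and turned in others. With inverse variance weights the EJC-independent spans were 0.14 for the penultimate and 0.13 for the last. Over windows in both tables only, the EJC-enhanced spans were 0.19 and 0.15. Methionine at -0.08 ± 0.05, glutamate at -0.07 ± 0.05 and lysine at -0.05 ± 0.05 were lowest and glycine, isoleucine and asparagine highest in the EJC-independent reporter. Glutamate at -0.05 ± 0.04, tyrosine and asparagine were lowest and tryptophan at 0.09 ± 0.05, histidine at 0.08 ± 0.03 and alanine at 0.05 ± 0.02 highest in the EJC-enhanced reporter. Among penultimate codons the extremes were GAT at -0.11 ± 0.04, GAA at -0.11 ± 0.06 and TCG at -0.10 ± 0.03 against GTA, GGT and TTT at 0.08, 0.08 and 0.07 in the EJC-independent reporter. They were GGA at -0.12 ± 0.06, TAT at -0.08 ± 0.04 and GAA at -0.08 ± 0.07 against ACG at 0.14 ± 0.06, GTT at 0.11 ± 0.04 and CTA at 0.10 ± 0.04 in the EJC-enhanced reporter. GGA was thus lowest as the penultimate codon and highest as the last codon of the EJC-enhanced controls.

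The base after TGG made little difference. EJC-independent means ran from -0.03 for A through -0.03 for G and -0.01 for C to 0.00 for T, and EJC-enhanced means from 0.01 for T through 0.02 for A and 0.03 for C to 0.04 for G. For each of these 8 means the 95% interval of its difference from the other controls of the reporter includes 0. The base at every free place, fitted together, accounted for 0.206% of the variance of controls in the EJC-independent and 0.269% in the EJC-enhanced reporter, against 6.04% and 0.349% among stop variants.

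Base composition went with small differences in the mean response and, in the EJC-independent reporter, with the share of calls. EJC-independent controls with 5 to 7 G or C among the 7 free bases averaged -0.01 (2886 variants) and those with 0 to 2 averaged -0.01 (1793 variants). EJC-enhanced controls averaged 0.04 and -0.01 in the same classes, and those with 0 to 2 were below the other controls by 0.05 (95% interval -0.08 to -0.02). Over windows in both tables only, the difference between these EJC-enhanced classes turned from 0.057 to -0.0080. The 116 EJC-independent controls with all 7 bases G or C averaged 0.07 ± 0.03, 0.09 above the rest (interval 0.02 to 0.16), and the 74 EJC-enhanced controls with none averaged -0.20 ± 0.08, 0.22 below the rest (interval -0.39 to -0.06). With all 7 bases G or C, 16.4% of 116 EJC-independent controls are higher and 2.59% lower in the authors' deposited table. Over all EJC-independent controls of the same count minimum, the shares are 4.09% and 4.03%. The share called higher was lowest with 2 such bases, at 2.36% of 1401 controls, of which 3.64% were lower. With 3, 4, 5 and 6 such bases it rose through 3.33%, 4.03%, 4.68% and 7.02%. Below 2 such bases the share called higher was 3.06% with 1, and 9.38% with none, which is 3 of 32 controls. In the EJC-enhanced reporter the shares with all 7 bases G or C were 1.57% and 1.57%. Median mean counts rose along with G and C content, from 182 with 2 such bases to 977 with 7 in the EJC-independent reporter, and their part in the called share was not tested.

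Runs of C went with a slightly higher response in both reporters. Controls with 4 or more C in a row averaged 0.03 (SD 0.17, 160 variants) in the EJC-independent reporter, 0.05 above the other controls (95% interval 0.02 to 0.07), with 28 higher and 7 lower in the authors' deposited table. In the EJC-enhanced reporter they averaged 0.09 (SD 0.16, 160 variants), 0.07 above the others (interval 0.04 to 0.09), with none called in either direction. That difference was 0.0090 over windows in both tables only, 0.10 with inverse variance weights, 0.12 by the median and 0.13 over windows with a ratio to the other table of at most 1, a measure taken up further on. With inverse variance weights the EJC-independent difference was 0.10. Their median mean counts were 4292 and 3436, which puts them among the most abundant variants. The extreme case is the Pro-Pro window of 6 C bases shown above. Followed by C, it had the highest mean count of all controls, 49604 and 44817, and responses of 0.59 ± 0.04 and 0.50 ± 0.25 (adjusted p 1.41e-53 and 0.0673, Wald test of the authors' deposited tables). Followed by T or G, the same 6 bases gave 0.26 ± 0.03 and 0.31 ± 0.04 in the EJC-independent and 0.26 ± 0.23 and 0.25 ± 0.24 in the EJC-enhanced table. In the EJC-independent reporter all 4 controls with this hexamer were called higher, and in the EJC-enhanced reporter none was.

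Other motifs were rare in the window, and none set its controls apart in both reporters. The poly(A) signal AATAAA occurred in 0 EJC-independent controls and 1 EJC-enhanced control, and its variant ATTAAA in 0 and 3, and none was called. The splice donor-like GTAAG or GTGAG occurred in 16 and 35 controls, with means of -0.29 ± 0.14 and 0.08 ± 0.18, and 0 and 1 of them called. Runs of 5 or more T (67 and 76 controls) averaged -0.05 in both reporters, and runs of 4 or more G (59 and 107) averaged 0.03 and 0.06. Runs of 5 or more A were found in 5 and 6 controls only. Controls with 2 or more CpG dinucleotides averaged 0.06 ± 0.03 (312 variants) in the EJC-independent reporter, 0.08 above the others (interval 0.02 to 0.14), and 0.04 ± 0.02 in the EJC-enhanced reporter (interval of the difference -0.03 to 0.06). EJC-enhanced controls without CpG were 0.02 below the others (interval -0.05 to -0.002). These motifs were searched on the sense strand of the 10 bases.

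Controls with an out-of-frame stop triplet differed little in mean response from those without one. In the EJC-independent reporter 720 controls with such a triplet averaged -0.02 and 9552 without one averaged -0.02, a difference of -0.01 (95% interval -0.06 to 0.04). In the EJC-enhanced reporter 1160 with one averaged -0.01 and 11933 without averaged 0.03, a difference of -0.03 (interval -0.08 to 0.01), which turned to 0.03 over windows in both tables only. Against controls that hold the same 3 bases in another order at the same place, the differences were 0.02 (interval -0.05 to 0.08) and -0.01 (interval -0.07 to 0.04). The authors' deposited tables have 26 higher and 19 lower of 718 tested controls with such a triplet (3.62% and 2.65%) in the EJC-independent reporter, against 4.13% and 4.14% of controls without one. For the EJC-enhanced reporter they have 40 and 30 of 1158 (3.45% and 2.59%), against 2.69% and 1.26% of controls without one. The controls with an out-of-frame stop were rarer, with median mean counts of 134 against 350 and of 122 against 301.

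The single triplets, in the patterns shown above, had means between -0.13 and 0.08. At bases 2 to 4 of the EJC-independent reporter, TAG averaged 0.08 ± 0.06, the second highest of the 64 triplets at that place, and TAA 0.05 ± 0.06, the seventh highest, while TGA averaged -0.13 ± 0.05, the lowest. The order was not the same in the EJC-enhanced reporter, where TGA averaged 0.08 ± 0.05, the seventh highest, TAG -0.00 ± 0.06 and TAA -0.01 ± 0.05. At bases 3 to 5, the EJC-independent mean of TAA was -0.04 ± 0.07, that of TAG -0.07 ± 0.06 and that of TGA -0.04 ± 0.07. Those of the EJC-enhanced reporter were -0.01 ± 0.05 for TAA, -0.01 ± 0.06 for TAG and -0.07 ± 0.06 for its TGA controls. Of the 12 triplet means, 1 has an interval against controls without such a triplet that leaves out 0, TGA at bases 2 to 4 of the EJC-independent reporter (difference -0.11, interval -0.21 to -0.01). The EJC-enhanced controls with any stop triplet at bases 3 to 5 were 0.06 below the other controls (interval -0.12 to -0.00011).

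ATG triplets, which could open another reading frame, also gave small differences. An A at base 6 makes ATG with the first bases of TGG, and the 1982 and 2775 controls with it differed from controls without any ATG by -0.01 (interval -0.04 to 0.02) and 0.01 (interval -0.02 to 0.03). Out of frame at bases 2 to 4, ATG gave 0.12 (interval 0.01 to 0.22, 125 controls) and -0.04 (interval -0.15 to 0.07, 198 controls). Out of frame at bases 3 to 5 it gave -0.13 (interval -0.25 to -0.01, 86 controls) and -0.07 (interval -0.18 to 0.03, 130 controls). In frame as the last codon, methionine gave 0.02 (interval -0.09 to 0.13) and -0.11 (interval -0.21 to -0.004). As the penultimate codon it gave -0.07 (interval -0.17 to 0.04) and 0.00 (interval -0.10 to 0.11).

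The controls of the EJC-enhanced reporter did differ along another measure, the abundance of the same window in the EJC-independent table. This comparison was chosen after the data had been seen. Each control's mean count in the other table was divided by that in its own. Because each table has its own scaling, a ratio of 1 does not mean equal abundance: the ratio ranks windows, and its values mark classes. EJC-enhanced controls whose window is not listed in the EJC-independent table averaged -0.15 ± 0.01 (SE, 3194 variants), and the means were -0.15 ± 0.01 at ratios up to 0.3, -0.08 ± 0.01 from 0.3 to 1, 0.11 ± 0.01 from 1 to 3, 0.65 ± 0.02 from 3 to 10 (1252 variants) and 1.23 ± 0.11 above 10 (144 variants). The authors' deposited table has 0.877% of the first class called higher and 26.8% of the last. Pearson's r between the response and the log2 ratio was 0.43 and Spearman's rho 0.45 over 9899 windows that share their libraries, and the log2 ratio accounted for 18.7% of the variance of the response.

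Most EJC-enhanced controls called higher were at the upper end of this ratio. Of the 361, 314 had a ratio above 1 (87.0%, against 36.0% of all its controls) and 237 a ratio above 3 (65.7%, against 10.7%). Of the 180 called lower, 28 had a ratio above 1, and 93 had no counterpart listed. The gradient was present in each class of own mean count: above a ratio of 3 the class means lay between 0.49 and 0.81, and for windows not listed in the other table, in the classes that hold any, between -0.21 and -0.05. The EJC-independent controls showed hardly any such gradient, with means from -0.05 to 0.03 over the same classes, a Pearson r of 0.03 and 16.2% of the called higher controls at ratios above 3, against 19.8% of all its controls. EJC-enhanced stop variants rose from 2.15 ± 0.01 where not listed to 2.94 ± 0.10 above a ratio of 10 (Pearson r 0.16), and EJC-independent stop variants had a Pearson r of -0.00.

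Restricted to windows that were not listed in the other table or had a ratio of at most 1, 47 EJC-enhanced controls were called higher and 152 lower of 8378 tested (0.561% and 1.81%), and the mean response was -0.12 (SD 0.51). The EJC-independent controls restricted in the same way had 242 higher and 282 lower of 5162 (4.69% and 5.46%), with a mean of -0.03. The difference of glutamate from the other last amino acids was -0.03 in each reporter under this restriction (intervals -0.13 to 0.08 and -0.13 to 0.07). What part the EJC-independent library plays in the EJC-enhanced responses was not tested.

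The response of a window in 1 reporter did not follow its response in the other. Over 9823 windows in both tables Pearson's r was -0.01, and over 6861 windows whose mean count was at least 100 in both it was -0.03, although the mean counts themselves were related (Spearman's rho 0.65). Called higher in both reporters by the authors' deposited tables were 17 windows, which is 4.21% of the 404 called higher in the EJC-independent and 5.11% of the 333 called higher in the EJC-enhanced reporter among shared windows. Called lower in both were 2 windows. In opposite directions, 45 windows were called lower in the EJC-independent and higher in the EJC-enhanced reporter (11.2% of 401 and 13.5% of 333), and 2 the other way. Over all shared windows the EJC-independent calls were 4.08% higher and 4.05% lower, and 3.36% were called higher in the EJC-enhanced reporter, so the shares called higher in both are near these and those called lower and then higher are above them. The missing correlation was not particular to the controls. Stop variants listed in both tables had a Pearson r of 0.01 over 26171 variants, and 0.00 over 16554 at mean counts of 100 or more.

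Nor did the response of a control correlate with that of neighbouring sequences in the same reporter, although some pairs shared a call. Pairs of controls with the same 6 bases and another base after TGG had a Pearson r of -0.00 over 12302 pairs in the EJC-independent and -0.01 over 17991 pairs in the EJC-enhanced reporter. Pairs of a control and a stop variant with the same 7 free bases had 0.01 and 0.00. Pairs of stop variants that differ in the stop codon alone had 0.13 in the EJC-independent reporter, 0.30 at mean counts of 100 or more, and 0.02 in the EJC-enhanced reporter. At mean counts of 100 or more, both controls were called higher in 35 of 7785 EJC-independent pairs, with 383 first and 380 second members higher. In the EJC-enhanced reporter both were higher in 16 of 12460 pairs, with 325 and 299 higher. Over all controls of that count, 4.39% and 2.74% were called higher. Both were lower in 14 and 1 of these pairs. Pairs share libraries, and many share a member.

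The strongest responses of the EJC-independent reporter were not matched in size by the few controls with the same 6 bases. By the authors' deposited table the highest responses at mean counts of 100 or more with a call were 2.49 ± 0.32 for acaggaTGGt (Thr-Gly), 2.30 ± 0.49 for ggtccaTGGg (Gly-Pro), 2.29 ± 0.11 for atacaaTGGc (Ile-Gln), 2.06 ± 0.45 for caatacTGGc (Gln-Tyr) and 2.05 ± 0.44 for gcagtcTGGa (Ala-Val). The Ile-Gln control is the best measured of these, with a mean count of 1760 and a 4.90-fold higher level under the inhibitor (adjusted p 3.18e-87 in the authors' deposited table, Wald test), and in the EJC-enhanced table it is at 0.28 ± 0.49. The 8 controls that share the 6 bases of any of these 5 and differ in the base after TGG lay between -0.13 and 0.93. None of the 8 was called, which is too few to set against the shares called among all controls. Over all 71 controls above 1 with a call and a mean count of 100 or more, 3.42% of 117 such neighbours were called higher. This is near the 4.39% of all controls of that count. Under the same limits, the lowest responses in the authors' deposited table were -1.42 ± 0.45 for aaatttTGGc, -1.42 ± 0.44 for tcgtcgTGGt, -1.34 ± 0.45 for atacgcTGGt, -1.31 ± 0.37 for ggctcgTGGa and -1.25 ± 0.45 for gttatcTGGg. None of the 11 controls that share their 6 bases was called, a number too small to set against the shares called among all controls. Over all 27 controls below -1 under these limits, 0 of 46 such neighbours were called lower, against 4.74% of all controls of that count.

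The 5 highest called EJC-enhanced controls with a mean count of 100 or more all had a high ratio to the other table. Their responses in the authors' deposited table are 5.33 ± 1.96 for gaacggTGGa (Glu-Arg), 4.88 ± 0.85 for agtggaTGGc (Ser-Gly), 3.96 ± 0.87 for aggacaTGGg (Arg-Thr), 3.94 ± 1.42 for ggtgcgTGGt (Gly-Ala) and 3.53 ± 1.19 for ttactaTGGt (Leu-Leu). Their ratios ran from 5.88 to 23.3, against a median of 0.665 over all EJC-enhanced controls of that count. Glu-Arg, for example, has a mean count of 163 in its own table and 3792 in the other, where its response was -0.25 ± 0.09. Under the same limits, the lowest in the authors' deposited table were -2.42 ± 0.74 for gactggTGGt (Asp-Trp), -2.37 ± 0.80 for ctggaaTGGg (Leu-Glu), -1.70 ± 0.62 for gacgtgTGGt (Asp-Val), -1.68 ± 0.51 for gatttaTGGc (Asp-Leu) and -1.55 ± 0.45 for cgcagaTGGa (Arg-Arg), and 3 of these 5 are not listed in the EJC-independent table. Over all 229 EJC-enhanced controls above 1 under these limits the median ratio was 5.63. For the 71 of the EJC-independent reporter it was 0.715, against 0.774 for all controls of that count. Members that share the 6 bases of these controls averaged 0.07 (SD 0.57, 500 members) in the EJC-enhanced and -0.05 (SD 0.33, 117 members) in the EJC-independent reporter. Of the 500 EJC-enhanced members, 27 were called higher (5.40%, against 2.74% of all EJC-enhanced controls of that count). For the 50 EJC-enhanced controls below -1 under these limits, 1.03% of 97 such members were called lower, against 1.07%.

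A small set of windows was called in both tables at mean counts of 100 or more, 15 in the same and 44 in the opposite direction out of 6861. In the authors' deposited tables the Ser-Gly control agtggaTGGc was at 1.46 ± 0.16 in the EJC-independent and 4.88 ± 0.85 in the EJC-enhanced reporter, and the Ile-Gly control attggcTGGc at 1.41 ± 0.06 and 1.67 ± 0.62. The Gly-Ser control ggttcgTGGc was at 1.37 ± 0.13 and 1.53 ± 0.47, and the Thr-Arg control acccgtTGGc at 1.25 ± 0.07 and 1.11 ± 0.44, by the same deposited tables of the authors. The next were the Leu-Trp control ctttggTGGt, lower in both at -0.93 ± 0.36 and -0.92 ± 0.41, and the Arg-Asn control cgcaacTGGa at 1.00 ± 0.14 and 0.82 ± 0.37. Of these 6 windows 4 have C after TGG, too few to read a preference from. Among controls with a mean count of 10 or more, C follows TGG in 3022 of 10272 EJC-independent and 3508 of 13093 EJC-enhanced controls. It also went with the highest median count. Among opposite calls the authors' deposited tables have the Thr-Thr control accacaTGGa at 1.78 ± 0.40 and -1.16 ± 0.41. The other three named, caatgtTGGc at -1.21 ± 0.44 and 0.97 ± 0.44, aggccaTGGt at -0.67 ± 0.16 and 1.31 ± 0.61, and aagctcTGGg at -0.57 ± 0.12 and 1.72 ± 0.62, were lower in the EJC-independent and higher in the EJC-enhanced reporter.

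The number of reads from stop variants with the same 7 free bases ranked only weakly with the response of a control, and the rare highest class stood apart in the EJC-enhanced reporter. EJC-independent controls with no listed stop partner averaged -0.10 ± 0.03 (635 variants) and those whose partners together had over 20 times their own mean count averaged 0.03 ± 0.04 (693 variants). EJC-enhanced controls with no listed partner averaged -0.08 ± 0.04 (639 variants) and those at ratios of 5 to 20 averaged 0.12 ± 0.04 (563 variants). The 18 EJC-enhanced controls above 20 averaged 0.63 ± 0.28, with a median mean count of 13.4. Spearman's rho between the response and this ratio was 0.04 and 0.05. Its part in the responses was not tested.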

How the data were processed

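The authors deposited 1 table per reporter, made from 6 libraries each, with 1 comparison of the treatments per variant. The submitters' processing notes name DESeq and DESeq2, with no version. How reads were assigned to variants is not stated in those notes or in the headers. Per the file headers, each row holds a mean normalized count (a signal scaled by size factors), the fold change and its standard error as log2 values, the Wald score, and p-values before and after adjustment. On the files, the deposited Wald score equalled the ratio of fold change to error, and Benjamini-Hochberg adjustment over each table gave back the adjusted p-values as deposited. Library depths are not in the tables.

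Here the sign was reversed, members were found by sequence, and means, SDs, standard errors and 95% intervals (normal approximation) were taken over variants whose mean count reached 10; calls were counted over all listed members. No test was added, since no value per library was used, and no correlation carries a p. Named are the extreme amino acids and codons by mean response, each out-of-frame triplet, each motif list, and by rank the called single controls whose mean count reached 100. Members and lists were chosen with earlier results of these data known. Alternatives changed the count minimum, the call threshold, the estimator (median or inverse variance weights), the windows used and the contrast. The scripts were tested on simulated data and used Python 3.11.15, pandas 2.3.3, NumPy 2.4.6, SciPy 1.17.1 and Biopython 1.88. Bases beyond the window and the place of integration were not analysed here.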

Additional observations from a re-analysis of the deposited data

How the results depend on the processing

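In 181 alternatives over 35 results, 147 values stayed within the 95% interval over variants, or moved by less than 1.5 times for counts, 30 moved by more and 4 turned the sign of a value whose interval leaves out 0; where no cause is given, the cause was not tested. Stricter calls lowered the EJC-independent counts by construction, to 230 higher and 141 lower at an adjusted p under 0.01 and to 252 and 160 at a response of at least log2 of 1.5, and the EJC-enhanced counts to 156 and 33 at 0.01. At mean counts of 100 or more, 108 EJC-enhanced controls were lower; the SD of the response was 0.32 and 0.48 and that of the Wald score 1.47 and 1.00 (EJC-independent, then EJC-enhanced), and the donor-like difference of the EJC-independent reporter was 0.042. With no minimum its SD was 0.55. Median: mean response -0.036 and -0.021, runs of C 0.12 (EJC-enhanced). Inverse variance weights: mean response -0.00064 and -0.015, and for the EJC-independent reporter 0.067 by G or C bases, -0.036 for ATG and 0.10 for runs of C, with 0.10 for runs of C in the EJC-enhanced reporter. Windows in both tables only (EJC-enhanced): mean response 0.082, G or C bases -0.0080, out-of-frame stop 0.031, ATG 0.041, runs of C 0.0090, donor-like -0.56. Additive base terms: ATG -0.043 (EJC-enhanced). The next setting was chosen after seeing the data: with a ratio to the other table of at most 1, 242 and 47 controls were higher, the mean response was -0.034 and -0.12, and runs of C gave 0.13 (EJC-enhanced). No minimum of 100 was possible for the contrast of count classes. No paired analysis was possible because the tables hold no values per library, and for the same reason size factors and left-out replicates were not run.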
